A study of Mus musculus with 19 samples.

Results

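Histone genes were followed across 3 sorted populations of mouse skin squamous cell carcinoma cells. Members were the genes of the authors' deposited expression table whose symbol starts with Hist1, Hist2, Hist3, Hist4, H1f, H2af or H3f. There were 18 of 1609 genes. The authors named the table as differentially expressed genes, so shares of the table are not shares of all expressed genes. Of these, 16 carry a cluster name (Hist1 to Hist3; no Hist4 gene was in the table) and 2, H2afx and H2afz, are histone variants. RefSeq annotates 67 protein-coding mouse genes with a Hist1 to Hist4 name and 18 with other names of the rule, so most histone genes have no value here. No H1f or H3f gene was in the table.

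Cells came from C57BL/6 allografts grown after intradermal injection of 10000 cells and named SCC1 and SCC2, here called the 2 tumours. Cells were sorted on CD71, the transferrin receptor, and on H2BGFP, a histone H2B fused to GFP that is diluted as cells divide, and the labels name no promoter that drives it. Quiescent cells were CD71lo H2BGFPhi, proliferative cells CD71hi H2BGFPlo and double negative cells CD71lo H2BGFPlo. The labels give strain, tissue and population but no age or driver allele, and the treatment as none. Whether a library came from 1 animal or a pool is not stated in the labels. Each population of each tumour gave 1 RNA library from 100000 sorted cells. The deposited values are log2 ratios between populations of the same tumour, with no expression levels, read totals or q-values, so the depth behind a ratio is unknown. The file names no log base, and base 2, the usual output of the named software, was assumed. A ratio of 12 in size is the limit of the table, is listed as such and gives no fold.

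Histones package DNA into nucleosomes, which hold H2A, H2B, H3 and H4, while H1 binds the linker DNA between them. Most cluster genes lie close together, have no introns and are transcribed when DNA is replicated, and their mRNA ends in a stem-loop bound by the protein of Slbp rather than in a poly(A) tail. Some cluster genes are also known to give polyadenylated mRNA in cells that do not divide. Variant histones are encoded outside the clusters: H2A.Z (H2afz) is placed at promoters, and H2A.X (H2afx) is phosphorylated at DNA breaks. The labels do not state whether the RNA was selected for poly(A) tails, which would bear on how stem-loop mRNA was captured.

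Promoters are shown for 3 histone families in which members lay on opposite sides in quiescent and double negative cells. Each higher gene thus stands beside a lower one. H2A also had members on opposite sides, and its promoters are not shown. Of the 18 members, 16 matched a RefSeq promoter (GRCm38.p6, the assembly that mm10 names), and H2afx and Hist1h2bc did not. The 250 bases before the start are printed 5′ to 3′ in the direction of the gene. Capitals mark exact matches on either strand to the CCAAT box (CCAAT), the TATA box (TATAAA), the octamer (ATTTGCAT), the Sp1 box (GGGCGG) or an E2F form (TTTGGCGC, and also TTTCCCGC). The first gene of each pair was higher and the second lower than in proliferative cells, in both populations and both tumours. The windows are Hist1h4h at chr13:23530794-23531043, plus strand, and Hist1h4d at chr13:23581318-23581567, plus strand. For H1 they are Hist1h1c at chr13:23738557-23738806, plus strand, and Hist1h1b at chr13:21780626-21780875, minus strand. For H3 they are Hist2h3c2 at chr3:96239128-96239377, minus strand, and Hist1h3g at chr13:23535168-23535417, plus strand.
Hist1h4h: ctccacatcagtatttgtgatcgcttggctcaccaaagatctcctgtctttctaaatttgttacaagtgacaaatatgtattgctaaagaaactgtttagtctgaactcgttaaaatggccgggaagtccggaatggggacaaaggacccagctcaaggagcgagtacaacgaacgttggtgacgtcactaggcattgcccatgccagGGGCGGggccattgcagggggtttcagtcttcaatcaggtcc
Hist1h4d: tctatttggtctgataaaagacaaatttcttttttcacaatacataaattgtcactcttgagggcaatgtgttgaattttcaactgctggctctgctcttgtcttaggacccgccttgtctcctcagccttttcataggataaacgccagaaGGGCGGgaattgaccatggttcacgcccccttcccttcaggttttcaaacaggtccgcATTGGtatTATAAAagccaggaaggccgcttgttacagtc
Hist1h1c: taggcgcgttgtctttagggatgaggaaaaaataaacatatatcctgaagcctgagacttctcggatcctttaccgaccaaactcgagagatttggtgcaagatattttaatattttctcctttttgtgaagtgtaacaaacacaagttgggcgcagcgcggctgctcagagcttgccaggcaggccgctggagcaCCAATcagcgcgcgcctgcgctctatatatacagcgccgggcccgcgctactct
Hist1h1b: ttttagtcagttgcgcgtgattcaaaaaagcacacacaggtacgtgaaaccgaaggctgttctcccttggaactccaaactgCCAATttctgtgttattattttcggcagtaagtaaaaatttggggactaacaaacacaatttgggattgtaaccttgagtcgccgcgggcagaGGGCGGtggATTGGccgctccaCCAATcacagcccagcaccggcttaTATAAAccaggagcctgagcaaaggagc
Hist2h3c2: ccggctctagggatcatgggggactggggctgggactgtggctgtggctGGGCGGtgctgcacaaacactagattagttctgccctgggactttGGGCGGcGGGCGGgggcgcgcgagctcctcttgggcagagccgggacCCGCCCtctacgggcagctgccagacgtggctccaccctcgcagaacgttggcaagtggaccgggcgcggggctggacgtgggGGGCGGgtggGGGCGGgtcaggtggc
Hist1h3g: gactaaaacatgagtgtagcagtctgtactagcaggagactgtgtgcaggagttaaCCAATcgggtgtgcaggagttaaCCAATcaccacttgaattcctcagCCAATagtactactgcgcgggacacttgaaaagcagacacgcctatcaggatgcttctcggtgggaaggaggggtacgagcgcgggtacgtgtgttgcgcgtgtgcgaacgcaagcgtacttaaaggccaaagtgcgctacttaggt

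The first comparison asked how quiescent cells differ from proliferative ones. Of the 16 cluster genes, in each tumour 8 were higher in quiescent cells, 5 were lower and 3 had opposite signs in the tumours. Of all genes tabulated, 35.8% were higher and 52.3% lower by the same rule, against 50.0% and 31.2% of the cluster genes. Both variant genes were lower. In the authors' deposited table the cluster genes' median log2 ratio was 0.12 (SCC1) or 1.58 (SCC2), while over all genes it was -0.61 or -0.49. In single tumours, 8 members were higher and 10 lower in SCC1 (38.3% and 61.6% of the table), and 11 and 7 in SCC2 (45.1% and 54.6%). At 1 or more in size in both tumours, 8 members were higher and 5 lower, against 11.3% and 23.3% of the table. The medians of the cluster genes rest on few values. Cluster members fell into a positive and a negative set, with no value between -1.18 and 1.42 in SCC1. The table lists genes named as differentially expressed, so ratios near 0 may have been left out, which was not tested. Without members at the limit the SCC1 median was 1.42, and the mean was -0.47. With 1 library per population and tumour, the smallest two-sided exact p over 2 tumours is 0.5, so no test was run. In these bulk libraries fewer cells of a type and less RNA per cell cannot be told apart.

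**Figure D1:**
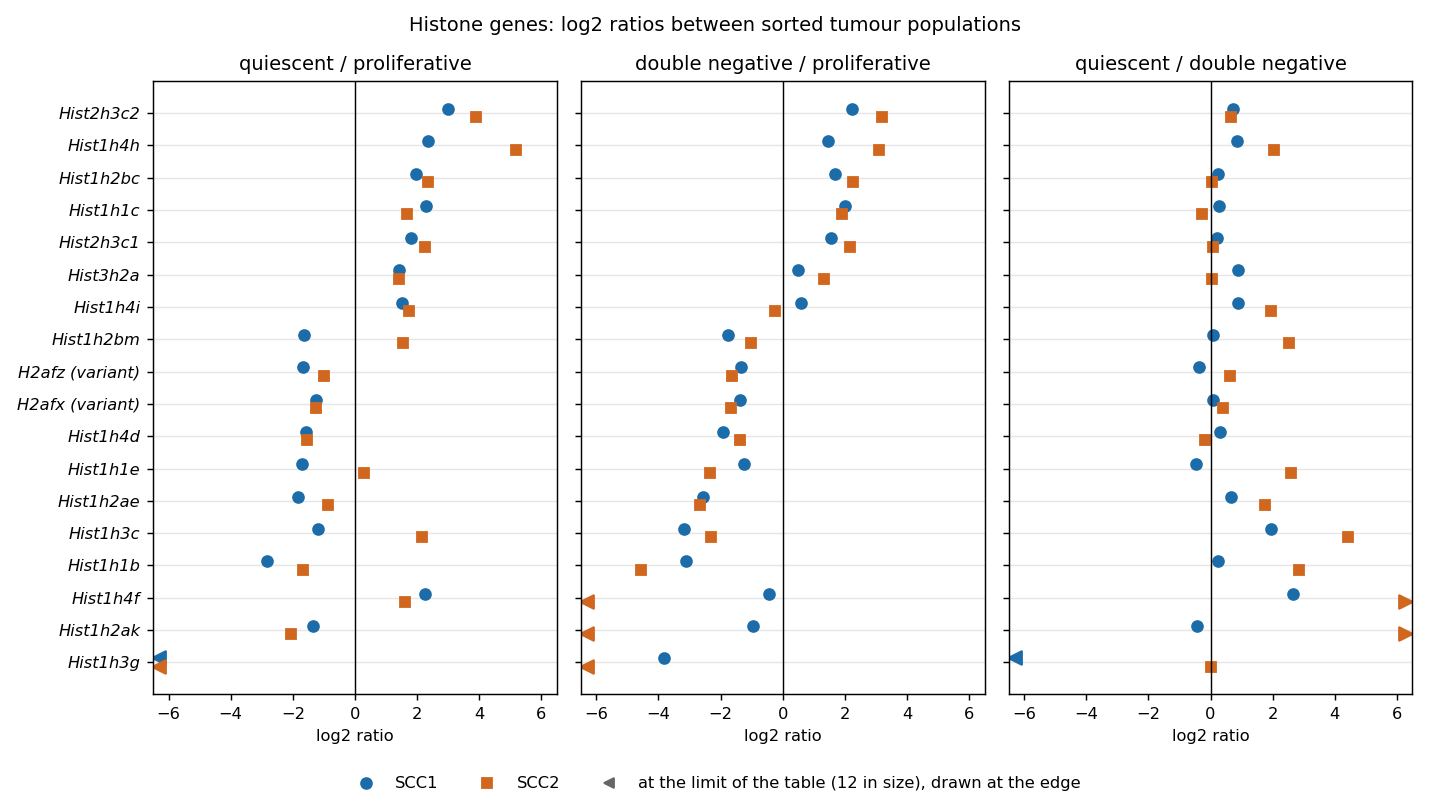
Log2 ratios of the 18 histone genes (rows, ordered by the mean double negative / proliferative ratio) in the 3 comparisons, with SCC1 as circles and SCC2 as squares and ratios at the limit as triangles at the edge. The top 6 genes lie right of 0 in both tumours in the 2 comparisons with proliferative cells, while H2afx, H2afz and the lower cluster genes lie left of 0.

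Double negative cells, which are low for both CD71 and H2BGFP, were set against the same proliferative libraries. Of the 18 members 6 were higher and 11 lower in double negative cells of both tumours, or 33.3% and 61.1%, against 42.6% and 50.9% of the table. The remaining gene was Hist1h4i. Cluster genes centred on a median of -0.70 (SCC1) or -1.19 (SCC2), against -0.35 or -0.34 over all genes, by the authors' deposited table. Without members at the limit the SCC2 cluster median was -0.25, which is above that of all genes. In single tumours, 7 members were higher and 11 lower in SCC1 (45.9% and 53.9% of the table), and 6 and 12 in SCC2 (45.6% and 54.1%). At 1 or more in size in both tumours, 5 members were higher and 9 lower, against 15.5% and 25.2% of the table. This comparison and the first share the proliferative libraries, so their values are given side by side and not as separate evidence. Build mm9 is named beside mm10 for the double negative libraries only, and its part in these ratios was not tested.

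In both comparisons with proliferative cells and both tumours, 6 members were higher, 7 lower and 5 neither. These are 33.3% and 38.9% of the members, against 33.4% and 49.3% of all 1609 genes by the same joint rule, so the share of higher members is that of the table. The higher set was Hist1h1c, Hist1h2bc, Hist1h4h, Hist2h3c1, Hist2h3c2 and Hist3h2a. The lower set was Hist1h1b, Hist1h2ae, Hist1h2ak, Hist1h3g, Hist1h4d, H2afx and H2afz. Every core histone type with a cluster member and H1 had a gene in the higher set. H1, H2A, H3 and H4 also had a cluster gene in the lower set, and H2B did not.

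Among H4 genes, Hist1h4h had quiescent against proliferative log2 ratios of 2.35 (SCC1) and 5.19 (SCC2), by the authors' deposited table. Its double negative against proliferative ratios in the authors' deposited table were 1.45 and 3.10. Quiescent cells thus had the highest Hist1h4h RNA and proliferative cells the lowest in both tumours. Hist1h4d went the other way, at -1.58 and -1.53 in quiescent and -1.93 and -1.37 in double negative cells, in the authors' deposited table. Its ratios were close in the 2 tumours. Hist1h4i stood at 1.51 and 1.73 in quiescent cells and at 0.59 and -0.25 in double negative cells in the authors' deposited table, so it was above proliferative cells in both tumours only in the quiescent population. Hist1h4f was also higher in quiescent cells, at 2.27 and 1.61 in the authors' deposited table, but lower in double negative cells of both tumours. In SCC1 double negative cells it was at -0.43. In SCC2 double negative cells it was listed at the lower limit. H4 genes encode the same protein from closely similar sequences, and reads could be split between copies, so single H4 values are uncertain.

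Among H3 genes, Hist2h3c2 was at 2.99 in SCC1 and 3.89 in SCC2 in quiescent cells and at 2.22 and 3.20 in double negative cells, in the authors' deposited table. Its neighbour Hist2h3c1 was at 1.80 and 2.27 in quiescent and at 1.57 and 2.16 in double negative cells, in the authors' deposited table. Both were above proliferative cells in every ratio. The 250 bases before their starts were 88.0% identical by edit distance, against a median of 44.0% over 120 pairs of member promoters, so their values may also share reads. Hist1h3g was listed at the lower limit in quiescent cells of both tumours and in double negative cells of SCC2. In SCC1 double negative cells it stood at -3.81 in the authors' deposited table. Hist1h3c was lower in double negative cells, at -3.17 and -2.32 in the authors' deposited table, and in quiescent cells at -1.18 in SCC1 but 2.15 in SCC2.

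The linker histone genes split in the same manner. Hist1h1c, which encodes H1.2, was at 2.30 in SCC1 and 1.69 in SCC2 in quiescent cells and at 1.99 and 1.92 in double negative cells, in the authors' deposited table. Hist1h1b, which encodes H1.5, was at -2.84 and -1.66 in quiescent cells in the authors' deposited table. It was lower still in double negative cells, at -3.11 and -4.55 in the authors' deposited table, which is the lowest ratio of any member that was not at the limit. Hist1h1e, which encodes H1.4, was at -1.26 and -2.35 in double negative cells in the authors' deposited table. In quiescent cells it was at -1.69 in SCC1 and 0.28 in SCC2.

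H2B was represented by Hist1h2bc and Hist1h2bm. Hist1h2bc was at 1.97 and 2.34 in quiescent cells and at 1.69 and 2.26 in double negative cells, in the authors' deposited table. RefSeq gives this gene 2 transcripts over 8282 bp, while the other cluster members have 1 transcript over 383 to 794 bp. Hist1h2bm was at -1.63 and 1.54 in quiescent cells and at -1.75 and -1.01 in double negative cells, in the authors' deposited table. Of the H2A genes, Hist3h2a was at 1.42 and 1.41 in quiescent cells and at 0.50 and 1.34 in double negative cells, in the authors' deposited table. Its annotated span overlaps Trim17, and since no source states counting by strand, reads of the 2 genes may not be separable. Hist1h2ae was lower, at -1.84 and -0.88 in quiescent and at -2.55 and -2.66 in double negative cells, in the authors' deposited table. Hist1h2ak was at -1.36 and -2.04 in quiescent cells and -0.96 in SCC1 double negative cells in the authors' deposited table, and at the lower limit in those of SCC2.

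Ratios of the 2 variants covered a narrower range than those of the 16 cluster genes. A range tends to widen with the number of genes, so this is not read as a trait of variants. H2afx was at -1.25 in both tumours in quiescent cells and at -1.37 and -1.68 in double negative cells, in the authors' deposited table. H2afz was at -1.66 and -0.98 in quiescent and at -1.33 and -1.64 in double negative cells, in the authors' deposited table. Each of these ratios were negative.

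Quiescent and double negative cells, both low for CD71 and differing in H2BGFP, were then set against each other. Of the 18 members 12 were above 0 in each tumour and 0 below it, or 66.7% and 0%, against 16.3% and 30.0% of all genes in the table. In SCC1 alone 14 of 18 members were higher, or 77.8%, against 29.0% of the table, and 4 lower, against 70.9%. In SCC2 alone 15 were higher, or 83.3%, against 57.1%, and 2 lower, against 42.7%. By the authors' deposited table the cluster median was 0.29 (SCC1) or 1.84 (SCC2), against -0.23 or 0.13 over all genes. Many of these ratios were small: at 1 or more in both tumours 2 of 18 members were higher, or 11.1%, against 1.31% of the table, and 0 lower, against 2.3%. These were Hist1h3c, at 1.95 and 4.43 in the authors' deposited table, and Hist1h4f, at 2.66 in SCC1 and at the upper limit in SCC2. Hist1h4h (0.87 in SCC1, 2.06 in SCC2), Hist1h4i (0.88, 1.94), Hist1h2ae (0.67, 1.75) and Hist2h3c2 (0.74, 0.64) were the other members above 0.5 in both tumours in the authors' deposited table. Hist1h2bc was near 0, at 0.24 and 0.05 in the authors' deposited table, and so was Hist2h3c1, at 0.19 and 0.09. This comparison shares its libraries with the other 2.

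For several members below proliferative cells in double negative cells, SCC2 had a larger ratio than SCC1. Hist1h1b stood at 0.23 in SCC1 and 2.86 in SCC2 between quiescent and double negative cells, Hist1h2bm at 0.07 and 2.53, and Hist1h1e at -0.47 and 2.61, in the authors' deposited table. Hist1h2ak was at -0.44 in SCC1 and at the upper limit in SCC2. Hist1h3g was at the lower limit in SCC1 and listed as 0 in SCC2, where quiescent and double negative cells were each at the lower limit against proliferative cells. The remaining members, Hist1h1c (0.27, -0.26), Hist1h4d (0.31, -0.18), Hist3h2a (0.89, 0.05), H2afx (0.08, 0.39) and H2afz (-0.37, 0.64), were under 1 in size in the authors' deposited table. The order of the 3 populations was the same in both tumours for 9 of 18 members, or 50.0%, against 40.0% of the table. For 5 of these, or 27.8% of members against 10.6% of the table, Hist1h2bc, Hist1h4h, Hist2h3c1, Hist2h3c2 and Hist3h2a, quiescent cells were highest and proliferative cells lowest. For 3, or 16.7% against 5.9%, Hist1h1b, Hist1h2ae and H2afx, proliferative cells were highest and double negative cells lowest. For Hist1h4f, or 5.56% of members against 0.684% of the table, quiescent cells were highest and double negative cells lowest.

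**Figure D2:**
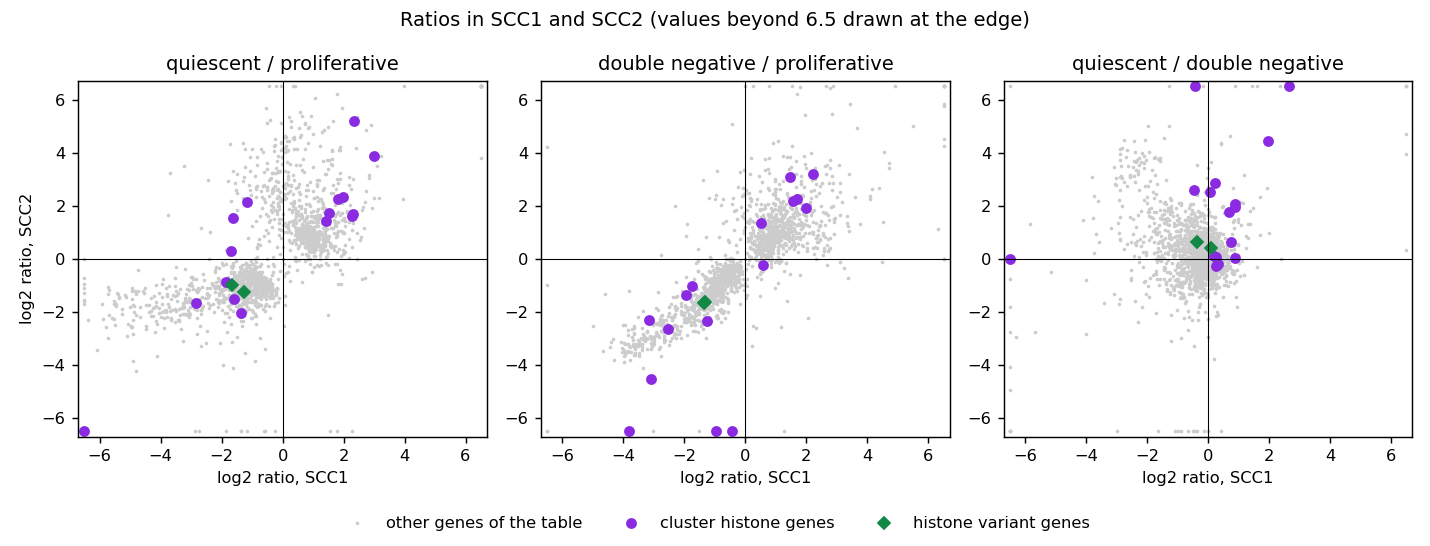
Log2 ratio in SCC1 (x axis) against SCC2 (y axis) for the 3 comparisons, with the 16 cluster histone genes as circles, the 2 variants as diamonds and other genes of the table as grey points. In the right panel 12 of the 18 members lie in the upper right field and 0 in the lower left.

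Markers of other cell types differed between the tumours in the same libraries. Of 12 fibroblast markers 9 had a ratio, and the authors' deposited table puts their quiescent against double negative median at -2.75 (SCC1) or 3.18 (SCC2). For 6 of 11 immune markers the authors' deposited table gives -1.51 or 2.30, and for 2 of 5 endothelial markers -5.85 or -1.30. Against proliferative cells, the authors' deposited table gives a fibroblast marker median of 0.08 or 4.60 in quiescent cells and of 2.75 or 1.45 in double negative cells. The part of these other cell types in the histone ratios was not tested. Of 8 keratinocyte markers only Epcam was in the table, at -3.21 and -0.40 in quiescent and at -1.93 and -0.68 in double negative cells against proliferative cells, by the authors' deposited table. Without levels the labelled cell type could not be checked against Krt5 or Krt14. Tfrc, the sorting marker, was lower in quiescent cells at -1.72 and -1.55 and in double negative cells at -1.63 and -2.02, in the authors' deposited table.

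Genes that process histone mRNA or carry new histones to DNA were read from a list of 43, of which 14 were in the table. All 14 were lower than in proliferative cells in both tumours, in quiescent cells (median -1.57 in SCC1, -1.10 in SCC2) and in double negative cells (-1.43, -1.54), in the authors' deposited table. By the same rule 52.3% and 50.9% of the table were lower. Slbp, whose protein binds the stem-loop, was at -0.95 and -1.21 in quiescent and at -0.84 and -0.94 in double negative cells, in the authors' deposited table. Slbp is not among the 8 supply genes of largest ratio and was picked for its role with its values known. The chaperone genes Asf1b (-3.80, -1.32), Chaf1a (-2.00, -1.58), Chaf1b (-2.16, -1.01) and Nasp (-1.58, -0.89) were also lower in quiescent cells in the authors' deposited table. Cenpa, the centromeric H3 variant that the symbol rule leaves out, was at -4.57 and -1.20 in quiescent and at -3.36 and -3.01 in double negative cells, in the authors' deposited table. Mms22l (-2.64, -1.08), Mcm2 (-2.12, -1.12) and Tonsl (-1.54, -1.39), which act where new histones meet the replication fork, completed the leading genes in quiescent cells in the authors' deposited table.

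Of 30 listed S phase genes 27 were in the table, Mcm2 being on both lists. All 27 were lower in both populations and both tumours than in proliferative cells, against 49.3% of the table. The authors' deposited table puts the S phase median at -2.66 (SCC1) or -1.34 (SCC2) for quiescent cells, and at -1.91 or -2.08 for double negative cells. Rrm2, a subunit of ribonucleotide reductase, was at -4.07 and -2.04, and Ccna2, which encodes cyclin A2, at -3.77 and -1.70, in quiescent cells in the authors' deposited table. Between quiescent and double negative cells 3 of 27 S phase genes and 14 of 18 histone genes were higher in SCC1, against 29.0% of the table. In SCC2 25 of 27 and 15 of 18 were higher, against 57.1%.

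**Figure D3:**
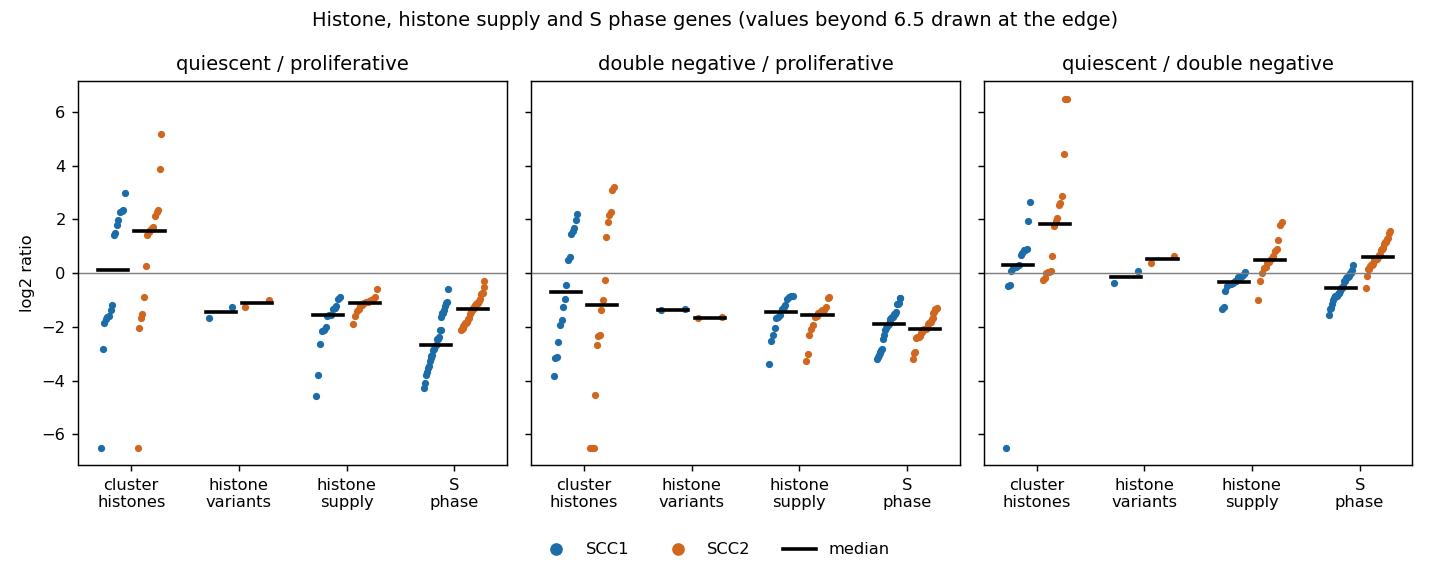
Log2 ratios (y axis) of cluster histones, histone variants, histone supply genes and S phase genes (x axis) in the 3 comparisons, with SCC1 and SCC2 side by side, 1 point per gene and bars at the median. In the left and middle panels the supply and S phase genes lie below 0 throughout, while cluster histones lie on both sides.

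The genes of the table closest to Hist1h4h over the 6 ratios were Tmprss11g (mean absolute difference 0.30), Gda (0.48), Tmem176a (0.65), Tmem176b (0.70) and Tmprss11bnl (0.72). The genes closest to the median of the 2 variants were Pola2 (0.092), Plekha7 (0.096), Cdt1 (0.10), Hat1 (0.11) and Eme1 (0.11). Pola2 encodes a subunit of DNA polymerase alpha, Cdt1 a replication licensing factor and Hat1 the acetyltransferase of new H4. The genes closest to the cluster median were 1700120K04Rik (0.35), Gna13 (0.37), C230052I12Rik (0.48), 3110009E18Rik (0.59) and Pet117 (0.60), but that median falls between the sets of cluster genes. The 6 ratios come from 3 libraries in each of 2 tumours and are not independent.

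By position (GRCm38.p6), 13 members lay on chromosome 13 between bases 21722044 and 23745521, Hist2h3c1 and Hist2h3c2 on chromosome 3, and Hist3h2a on chromosome 11. The 3 cluster genes outside chromosome 13 all belonged to the higher set, while the 13 on chromosome 13 held 3 of the higher set, 5 of the lower and 5 others. Neighbours there differed: Hist1h4h ended 3940 bp before Hist1h3g began, and Hist1h1c 5511 bp before Hist1h3c. H2afz lay on chromosome 3 and H2afx on chromosome 9. In the authors' copy number table, 17 members lay in a gain in SCC1, or 94.4%, against 45.1% of 1600 genes of the expression table with a position. In SCC2 3 members did, or 16.7%, against 44.1%. Of the 17, 13 lie in the same region of chromosome 13 and share 1 call. The chromosome 13 cluster had 3 copies in SCC1 and no call in SCC2. Hist2h3c1, Hist2h3c2 and Hist3h2a had 4 copies in SCC1 and 3 in SCC2, by the authors' calls. Those calls rest on ChIP-seq libraries of cultured cells and not on the sorted cells. Genes of both the higher and the lower set share the chromosome 13 gain.

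Merged ATAC peaks covered the start of 14 of 16 members with a RefSeq promoter, or 87.5%, against 74.0% of 1226 genes of the table and 35.0% of all 27025 promoters. The exceptions were Hist2h3c1 and Hist2h3c2, of the higher set, whose starts were 1185 and 727 bp from the nearest peak. Their promoters are 88.0% identical, and whether ATAC reads could be placed at either was not tested. The labels tie these peaks to 8 libraries, which are the 3 populations and CD71hi H2BGFPhi cells of SCC1 and SCC2. The series also has 2 ATAC libraries of Tgfbr2KO cells of a tumour named SCC3, and the labels do not say whether they entered the merge. Peaks were merged, so accessibility was not compared between populations. A Smad2/3 site from TGFβ1-treated SCC1 cells lay within 10 kb of 4 of 18 members, or 22.2% (exact 95% interval 6.41 to 47.6), against 21.4% of the table. These were Hist1h1c, Hist1h2bc, Hist1h3c and Hist1h4d, and the site nearest to a start was 743 bp from that of Hist1h1c. No member held a site in its gene body (0 of 18, exact 95% interval 0 to 18.5%), against 12.6% of the table. Of the 18 members 15 span under 1000 bp, and gene lengths were not matched, so these 2 shares are not like for like.

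In the 250 bases before the start, CCAAT occurred in 11 of 16 members (34.5% of all promoters), TATAAA in 6 (13%), the octamer in 3 (1.61%), the Sp1 box in 10 (32.9%) and either E2F form in 0 (0.437% and 0.929%). Split after the ratios were seen, CCAAT was in 5 of 5 promoters of the lower cluster set and in 2 of 5 of the higher set. TATAAA was in 3 of 5 of the lower and 0 of 5 of the higher set. The matches of the lower set began at -28 (Hist1h1b), at -32 (Hist1h4d) and, on the opposite strand, at -142 (Hist1h2ae). Counts of TATAAA thus include matches far from the start. The Sp1 box was in 3 of 5 and the octamer in 1 of 5 of both. Among the 5 higher promoters, those of Hist2h3c1 and Hist2h3c2 are 88.0% identical, so they are not separate cases in these counts. Hist1h2bc of the higher set had no promoter to search. Of the 5 other cluster genes, 3 held CCAAT, 3 held TATAAA, 3 held the Sp1 box and 1 held the octamer. Their TATAAA matches began at -27 (Hist1h1e), -137 (Hist1h4i) and -250 (Hist1h4f). Only the exact letters were searched, so other forms of a TATA box were not counted. In the sequences above, Hist1h1b and Hist1h4d hold both CCAAT and TATAAA, Hist1h1c and Hist1h3g hold CCAAT alone of these, and Hist1h4h and Hist2h3c2 hold neither. The H2A genes, not shown, did not part by CCAAT. Hist3h2a of the higher set and Hist1h2ae of the lower set each held 2 CCAAT and 1 octamer match. Hist1h2ae also held 1 TATAAA match, and Hist1h2ak of the lower set held 3 CCAAT matches. Hist1h3g, listed at the limit, has 3 CCAAT matches. A match describes letters and not a bound factor.

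**Figure D4:**
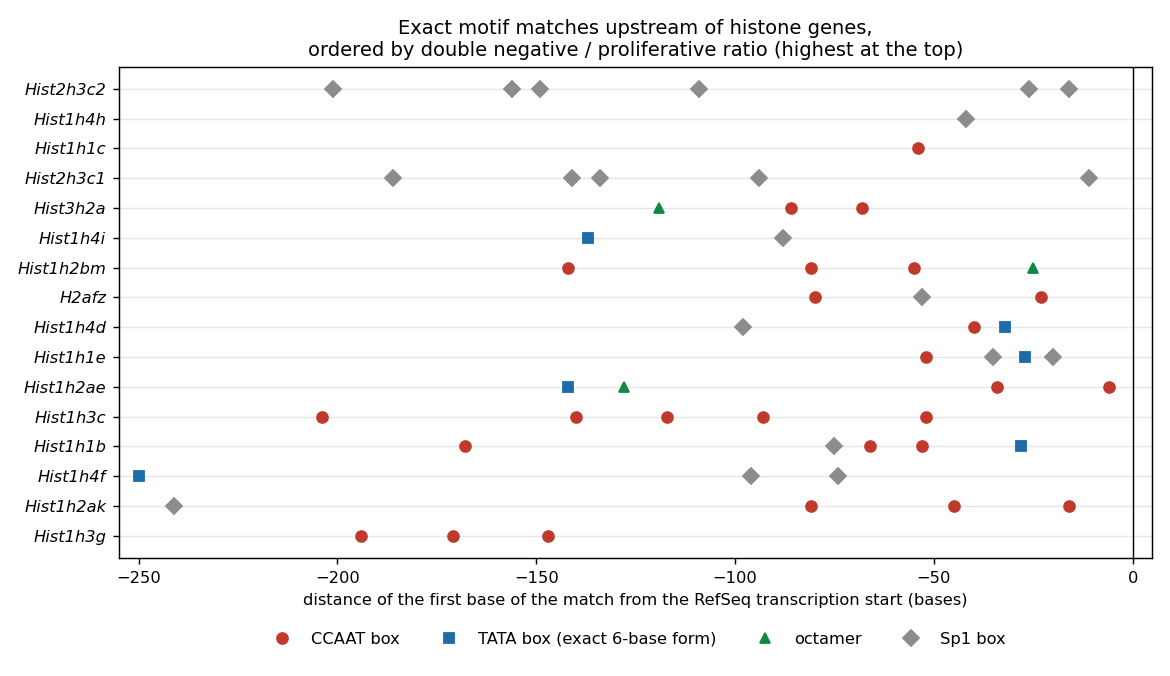
Positions of exact motif matches on either strand before the start of 16 histone genes (x axis, bases from the RefSeq start; rows ordered as by double negative / proliferative ratio, highest at the top). Hist1h3c has 5 CCAAT matches, and no exact TATAAA match lies in the top 5 rows.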

How the data were processed

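RNA of 3 populations in 2 tumours was compared through 1 table. TopHat2 2.0.9, Cufflinks 2.2.0 and Cuffdiff 2.2.0 are named with build mm10, and also mm9 for double negative libraries, per the submitters' processing notes. The log2 ratios were deposited by the authors, per the file headers, which name population pairs and no log base. Base 2 was assumed from Cuffdiff's usual output. The listed genes are named as differentially expressed. Neither the scaling between libraries nor the cutoffs for listing a gene were found in the labels or headers. Within a tumour the 3 ratios of a member closed to within a median of 0.04 (SCC1) and 0.03 (SCC2) on the log2 scale, where no ratio was at the limit. Copy number is a whole count of copies per region deposited by the authors, with the authors' p-value. The mutation table gives the read count and the percent of alternative reads deposited by the authors. Smad2/3 and ATAC files hold positions only.

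Work was done in Python 3.11.15 with pandas 2.3.3, numpy 2.4.6, matplotlib 3.10.9 and scipy 1.17.1. Higher or lower means the same sign in both tumours, and the counting was tested on simulated data. All 18 members matched 1 RefSeq gene each by a synonym. Every member was named, with at most 8 supply and S phase genes each and the 5 closest genes per profile. The members and lists were chosen with earlier results of these data known. Also tried were other least ratios, each tumour alone, members at the limit left out, means, other windows and a stricter copy number p. Identity between proteins was not used here, so near-identical copies were not merged. Intervals cover counting error only.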

Additional observations from a re-analysis of the deposited data

Results flagged for a closer look

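In all, 9 member ratios had opposite signs in SCC1 and SCC2. Counting ratios of 0 as well, 3 of 18 members lacked a shared sign between quiescent and proliferative cells, against 192 of 1609 genes. For double negative against proliferative cells the counts were 1 member and 105 genes. For quiescent against double negative cells they were 6 members and 863 genes, a lower share of members than of all genes. Each of the 9 is given as the SCC1 minus the SCC2 log2 ratio. The difference was not tested, since each tumour has 1 library per population. Between quiescent and proliferative cells it was -1.98 for Hist1h1e, -3.18 for Hist1h2bm and -3.33 for Hist1h3c. All 3 were below 0 in SCC1, above 0 in SCC2, and below 0 in double negative cells of both tumours. Between double negative and proliferative cells it was 0.84 for Hist1h4i. Between quiescent and double negative cells it was -1.01 for H2afz, 0.53 for Hist1h1c, -3.08 for Hist1h1e and 0.49 for Hist1h4d. For Hist1h2ak it was -12.4, which rests on a ratio at the limit and is no size.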

How the results depend on the processing

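The counts of members kept within 1.5 times of the reported one in most settings. That tally includes counts of the 2 variants, which had little room to change. A count in a single tumour also cannot fall below the count in both. Each tumour alone gave 5 to 8 cluster genes lower in quiescent than in proliferative cells, against 54.6% (SCC2) to 61.6% (SCC1) of the table. Between quiescent and double negative cells each tumour alone gave 2 to 3 cluster genes lower, 1 to 2 variants higher and 0 to 1 lower. At a least ratio of 0.5 in each tumour 6 cluster genes and 0 variants were higher in quiescent than in double negative cells, and with 1 or more 2 and 0 were. At 1 or more, 1 variant was lower in quiescent than in proliferative cells. The cluster medians are unstable, because few values lie near the middle. In SCC1 quiescent against proliferative cells the mean was -0.47, the median of all members -1.22, and the median without members at the limit 1.42. The mean in SCC2 was 0.37. For double negative against proliferative cells the median of all members was -1.11 in SCC1, and in SCC2 the cluster mean was -2.28 and the median without members at the limit -0.25. Between quiescent and double negative cells the cluster mean in SCC1 was -0.18. In place of the variants' median, that of all members was -1.22 and 1.48 for quiescent and -1.11 (SCC1) for double negative against proliferative cells, and 0.25 and 1.19 between quiescent and double negative cells, since cluster genes dominate it. A Smad2/3 site lay in 0 gene bodies (12.6% of the table, with gene lengths not matched) and within 50 kb of 10 members, or 55.6%, against 42.0%. Merging members with identical proteins was not run. No paired analysis was possible because each deposited ratio already sets populations of the same tumour against each other. The depth behind the ratios is unknown.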

Other observations

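The authors' mutation table listed 0 calls in the 18 members among 1426 calls, and 7 calls in other histone genes that have no expression ratio here. In H3f3b, which encodes the variant H3.3, a nonsynonymous T-to-A change at base 116023954 of chromosome 11 was listed in all 4 libraries. It had 24% of 1212 reads in proliferative and 20% of 1451 reads in quiescent cells of SCC1 (exact 95% intervals 21.6 to 26.5 and 18.0 to 22.1). In SCC2 it had 43% of 1014 and 41% of 282 reads (39.9 to 46.1 and 35.3 to 47.1). In H2afy, which encodes macroH2A1, a T-to-A change at base 56128448 of chromosome 13 was listed at 23% of 150 and 29% of 124 reads in proliferative and quiescent cells of SCC1 and at 41% of 85 reads in proliferative cells of SCC2. It was not listed in quiescent cells of SCC2, a library with 95 listed calls against 411 to 498 in the other 3. Intervals were computed on percents the authors rounded, and reads of PCR copies are not independent molecules.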
